A study of Mus musculus with 48 samples.

Results

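Smooth muscle of the iris contracts through a set of proteins that most liver cells do not need in quantity. The data described here are the RNA levels of 10 such genes, chosen by name: Acta2, Actg2, Myh11, Tagln, Cnn1, Lmod1, Smtn, Mylk, Des and Myocd. All 10 were found among the 46517 mouse genes counted. They were followed through 16 samples in 5 groups, each sample being the sum of 3 technical libraries, in TPM, a relative transcript level corrected for transcript length and library depth, before any subtraction of iris signal and in the counts underneath.

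The groups were 5 explants removed 2 months post-tx, 3 naïve irises, 3 livers, 3 hepatocyte preparations and 2 samples of liver spheroids kept in culture. All are labelled as wild-type albino mice of strain C57BL/6N. An explant was made of engrafted spheroids cut out by hand together with the iris around them, so it holds RNA of both tissues. Several spheroids were transplanted per eye, and the number in each explant is not given. The explants carry the numbers 1, 2, 4, 5 and 6. The hepatocyte preparations came from livers dissociated with collagenase and enriched on a density gradient, and the spheroids were grown from such cells. The labels do not say which samples share an animal or whether animals were pooled, and p-values therefore measure only the spread between these samples. Ages are not given per group.

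The iris carries a ring of sphincter muscle that narrows the pupil and a thin dilator muscle, derived from the pigmented epithelium, that widens it. In smooth muscle, calcium activates myosin light chain kinase, which lets myosin pull on actin filaments, while calponin, transgelin and leiomodin bind and organise those filaments. Transcription of these genes is driven largely by serum response factor, which binds a DNA element called the CArG box, together with the cofactor myocardin. In the liver, α-smooth muscle actin is best known as a marker of activated stellate cells, and desmin is found in stellate cells at rest in rodents.

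Promoter sequence was available for 6 of the 10 genes (Acta2, Cnn1, Lmod1, Smtn, Mylk and Des) in RefSeq for GRCm38.p6, as windows of 250 bases before to 50 bases after the annotated start. The windows of Acta2, the most abundant of the 10 genes in irises, and of Lmod1 and Des, which stand apart from the others in the explants, are given in that order, with Myl9, the gene of the smooth muscle regulatory light chain, for comparison. They lie at chr19:34255324-34255623 on the minus strand, chr1:135324563-135324862 on the plus strand, chr1:75360042-75360341 on the plus strand and chr2:156775214-156775513 on the plus strand. Capitals mark matches, on both strands, to the CArG box with at most 1 mismatch in its A/T core, to CATTCC, the element bound by TEAD factors, and to TATAA on the strand shown.
Acta2: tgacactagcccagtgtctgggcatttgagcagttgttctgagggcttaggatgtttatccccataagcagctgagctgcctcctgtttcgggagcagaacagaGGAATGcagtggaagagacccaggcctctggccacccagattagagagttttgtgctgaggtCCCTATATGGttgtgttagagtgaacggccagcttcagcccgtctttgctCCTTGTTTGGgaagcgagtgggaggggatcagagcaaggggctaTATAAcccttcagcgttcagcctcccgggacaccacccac
Lmod1: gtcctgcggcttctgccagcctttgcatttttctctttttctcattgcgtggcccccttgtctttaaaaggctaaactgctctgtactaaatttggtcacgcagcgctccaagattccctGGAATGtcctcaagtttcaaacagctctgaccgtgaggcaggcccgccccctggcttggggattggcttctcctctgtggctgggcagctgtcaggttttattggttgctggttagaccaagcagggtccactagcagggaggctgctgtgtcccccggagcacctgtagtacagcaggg
Des: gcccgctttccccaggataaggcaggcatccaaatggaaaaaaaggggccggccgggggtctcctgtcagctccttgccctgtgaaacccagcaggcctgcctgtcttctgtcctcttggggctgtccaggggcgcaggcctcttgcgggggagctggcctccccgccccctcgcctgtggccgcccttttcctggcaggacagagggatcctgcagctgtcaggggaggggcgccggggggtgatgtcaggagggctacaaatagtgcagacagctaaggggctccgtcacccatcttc
Myl9: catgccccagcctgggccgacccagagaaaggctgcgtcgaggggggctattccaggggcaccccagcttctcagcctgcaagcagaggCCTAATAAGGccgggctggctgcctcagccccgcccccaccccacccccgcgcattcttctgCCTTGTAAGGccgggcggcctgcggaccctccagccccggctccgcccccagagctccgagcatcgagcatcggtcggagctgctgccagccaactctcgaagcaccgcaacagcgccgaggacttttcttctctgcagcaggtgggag
None of the 6 windows held an exact CArG box, which was present in 1.63% of all 32851 promoter windows. Acta2 alone of the 6 held matches with 1 mismatch (CCCTATATGG and CCTTGTTTGG, 84 and 34 bases before the annotated start), against 9.98% of all windows. Myl9 held an exact box, CCTAATAAGG, 161 bases before its start. CATTCC was found in 4 of the 6 (Acta2, Lmod1, Smtn and Mylk), against 14.7% of all windows, and Des and Cnn1 held no match to any of these letters. In Acta2 the TATAA lay 10 bases after the RefSeq start and 27 bases before the first base of the counting annotation. Des had the window richest in G and C among the 6, at 65.3%, against 54.7% in Acta2.

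Several facts of the whole series bear on these genes. Total counts were 4596550 to 4881817 per iris, 5449589 to 6789648 per explant and 2718518 to 3871404 per sample in the other 3 groups. Duplicate reads had been removed before counting. The most counts per base that any gene of at least 500 bases reached in a library was 1.70, and whether duplicate removal set a limit was not tested. Acta2 stood at 0.862 to 0.951 counts per base and library in irises and 0.750 to 0.868 in explants, Tagln at 0.574 to 0.615 and 0.508 to 0.594, Myh11 at no more than 0.425, and the other 7 genes at no more than 0.233. Markers of hepatocytes summed to 1430 to 1711 TPM in the irises, against 12246 to 13731 TPM in the livers. Markers of the iris pigment epithelium summed to 459 to 620 TPM in the livers, hepatocyte preparations and spheroids, against 10377 to 10901 TPM in the irises. Markers of each tissue were therefore counted in samples of the other. Whether these transcripts were made there or carried over was not tested.

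Reads were counted without regard to strand and for every gene they overlapped. Exons of Tagln overlap Pcsk7 and Gm48529 on the other strand, those of Smtn overlap Gm11946 and Gm11947, those of Mylk overlap E130310I04Rik and Gm21691, and those of Des overlap Gm15179, so reads of these genes cannot be told apart from their partners' there. The near relatives among actins and myosins were separable: of the 50-base words in Acta2 transcripts 0.326% also occurred in another gene, of those in Myh11 0.34%, and of those in Actg2 0 of 1592.

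The contractile genes were most abundant in the irises and lower as a sum in every explant. Their summed level was 4366 ± 79.6 TPM in the irises (SD, n = 3), 3373 ± 325 TPM in the explants (n = 5), 197 ± 15.7 TPM in the livers (n = 3), 160 ± 6.38 TPM in the hepatocyte preparations (n = 3) and 147 ± 14.1 TPM in the spheroids (n = 2). Acta2 and Tagln together made up 61.6 to 63.4% of that sum in irises and 56.5 to 63.6% in explants.

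**Figure D1:**
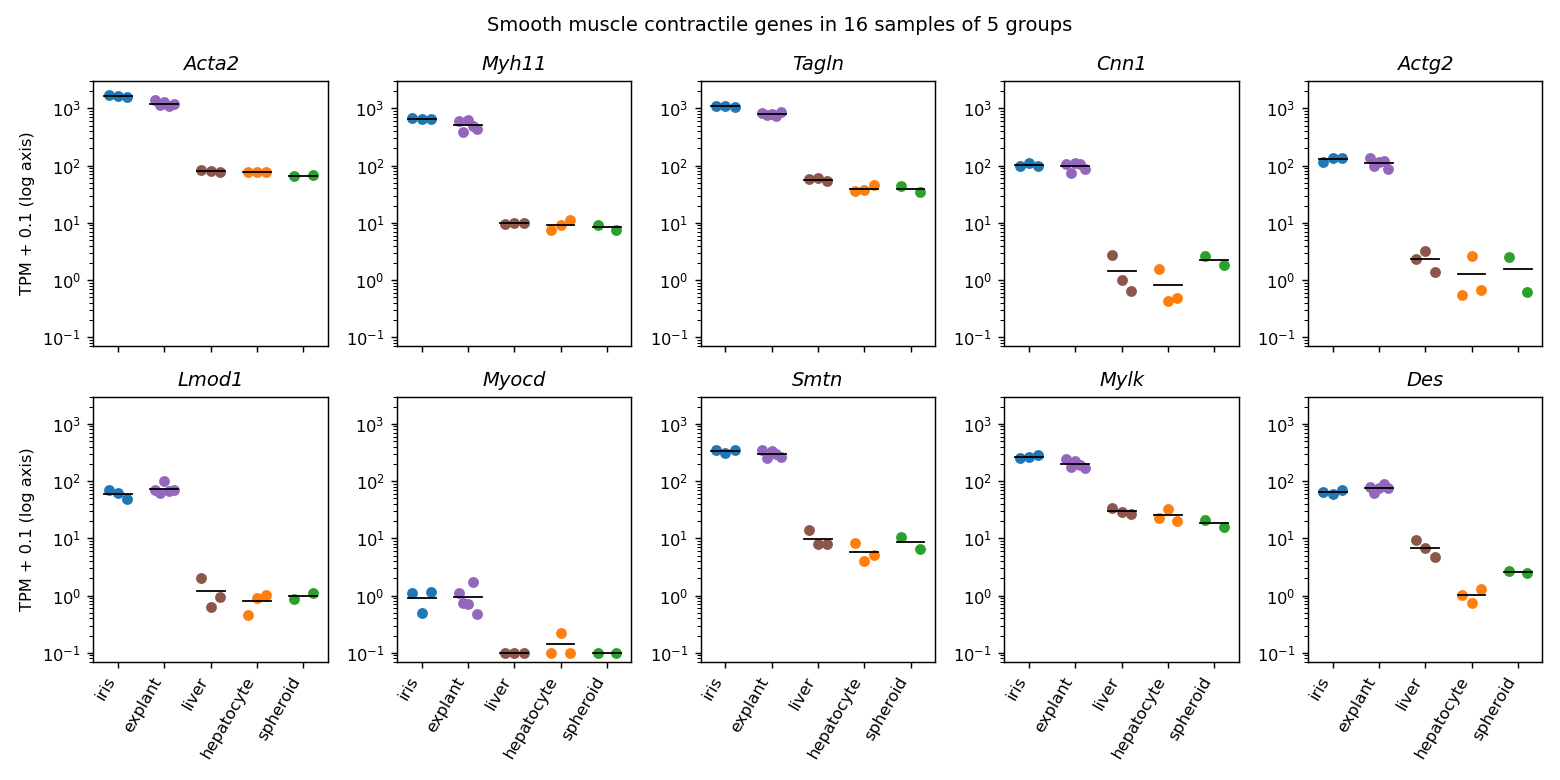
Level of each contractile gene in the 16 samples (points; vertical axis TPM + 0.1, logarithmic; black bars, group means of TPM + 0.1), by group. Irises and explants stand above the livers, hepatocyte preparations and spheroids for all 10 genes, and Myocd is near 1 TPM even in irises. Of all genes tested, 84.4% had ranges that did not overlap between irises and livers, and 73.5% between explants and spheroids, in either direction.

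Acta2 (ENSMUSG00000035783, mm10 chr19:34241090-34255336, minus strand) encodes α-smooth muscle actin. It stood at 1713, 1660 and 1595 TPM in the irises and at 1372, 1151, 1271, 1095 and 1175 TPM in explants 1, 2, 4, 5 and 6. The groups did not overlap. In the livers it stood at 82.1, 81.4 and 76.3 TPM, in the hepatocyte preparations at 76.3, 78.1 and 75.7 TPM and in the spheroids at 64.5 and 67.8 TPM, a range narrow enough that livers and hepatocyte preparations overlapped. Actg2 (ENSMUSG00000059430, chr6:83512905-83536265, minus strand), the γ-actin of enteric smooth muscle, was far lower in the irises, at 117 to 137 TPM, and 86.0 to 133 TPM in the explants, which overlapped the irises. It was 0.448 to 3.15 TPM in the other 3 groups, from 1 to 7 counts per sample.

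Tagln (ENSMUSG00000032085, chr9:45929628-45936058, minus strand), the actin-binding protein transgelin, was 1106, 1104 and 1048 TPM in the irises and 834, 779, 796, 730 and 853 TPM in the explants, again without overlap. It was 53.2 to 59.5 TPM in livers, 35.3 to 46.5 TPM in hepatocyte preparations and 34.5 and 44.1 TPM in spheroids. Cnn1 (ENSMUSG00000001349, chr9:22099281-22109630, plus strand) is calponin, a thin filament protein that restrains myosin. It was 104 ± 7.83 TPM in irises (SD, n = 3) and 97.2 ± 16.2 TPM in explants (n = 5), a difference smaller than the spread between samples. Smtn (ENSMUSG00000020439, chr11:3517523-3540612, minus strand), smoothelin, a protein of contractile filaments, was 337 ± 22.2 TPM and 298 ± 42.4 TPM and likewise overlapped.

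Lmod1 (ENSMUSG00000048096, chr1:135324807-135368065, plus strand), the smooth muscle leiomodin that nucleates actin filaments, had a different order. It stood at 69.2, 61.8 and 48.6 TPM in the irises and at 70.6, 62.1, 100.2, 65.7 and 70.1 TPM in explants 1, 2, 4, 5 and 6. Of the 5 explants, 3 lay above every iris and the groups overlapped through explants 2 and 5. Outside the eye it was 0.355 to 1.94 TPM, from 2 to 11 counts per sample. Des (ENSMUSG00000026208, chr1:75360329-75368579, plus strand), the intermediate filament desmin, behaved alike in the eye, at 64.7, 58.3 and 68.7 TPM in the irises and 77.3, 61.2, 76.8, 87.5 and 75.9 TPM in the explants. Explant 2 alone fell within the range of the irises.

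Myh11 (ENSMUSG00000018830, chr16:14194527-14291408, minus strand), the smooth muscle myosin heavy chain, was 670, 652 and 664 TPM in irises, a coefficient of variation of 1.4%, and 595, 380, 622, 490 and 428 TPM in explants, a coefficient of 20.7%. Every explant lay below every iris. Mylk (ENSMUSG00000022836, chr16:34745210-35002420, plus strand), the kinase that activates it, was 255, 262 and 287 TPM in irises and 243, 176, 225, 190 and 171 TPM in explants, without overlap. Myocd (ENSMUSG00000020542, chr11:65176561-65269989, minus strand), the transcriptional cofactor myocardin, was near the limit of counting, with 4 to 11 counts per iris, 5 to 24 per explant, 1 count in hepatocyte preparation 2 and 0 in every other hepatocyte preparation, liver and spheroid. A count of 0 allows up to 0.308 to 0.329 TPM in a liver and 0.355 to 0.376 TPM in a spheroid (3 counts, counting error only). Its level was 0.822 ± 0.366 TPM in irises (SD, n = 3) and 0.847 ± 0.480 TPM in explants (n = 5).

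Between irises and livers every one of the contractile genes that could be tested was higher in the iris. With edgeR's quasi-likelihood test on summed counts, TMM scaling and Benjamini-Hochberg adjustment over 15459 genes, 9 of 9 tested members were called higher in irises at an adjusted p under 0.05. Of all genes 39.1% were called higher in irises, and 73.6% were called in either direction. Cnn1, Actg2 and Lmod1 had 2 to 11 counts per liver and passed the filter on low counts only through the irises. The log2 fold change was 5.35 ± 0.31 (SE) for Cnn1 and 5.20 ± 0.11 for Myh11, the largest among the members, and 2.28 ± 0.11 for Mylk and 2.35 ± 0.20 for Des, the smallest. The median over the 9 was 4.22, against 0.12 over all genes tested. Myocd was left out by the filter on low counts, and its level in irises was at least 2.56-fold higher than the floor of 3 counts per sample in livers. These folds are smaller than the ratios of TPM, since TMM raises the irises' scaling: with library size alone Acta2 stood at 4.16 in place of 3.48 and the median over all genes at 0.79.

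What is left of these transcripts outside the eye differed by gene. As a percentage of its mean in irises, Myh11 was at 1.10 to 1.66% in the 8 livers, hepatocyte preparations and spheroids, and Cnn1, Actg2 and Lmod1 averaged 1.27, 1.27 and 1.5%. Among 482 genes of at least 500 bases and over 300 TPM in irises, muscle and mural lists left out, the lowest such average was 0.908%. Acta2 averaged 4.55% and Tagln 4.23%. Among pigment epithelium genes at 1761 to 2530 TPM in irises, Tyrp1 averaged 4.17%, Mlana 5.17%, Pmel 6.47% and Dct 8.22%. Acta2 and Tagln had means of 1656 and 1086 TPM in irises. Tyr, Slc45a2 and Oca2, which irises hold at 377 to 686 TPM, averaged 1.02 to 1.76%. Mylk averaged 9.39%, and Des ranged from 0.994% in hepatocyte preparation 2 to 14.2% in liver 1. Whether the transcripts of Acta2, Tagln and Myh11 in these samples came from liver cells was not tested.

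**Figure D2:**
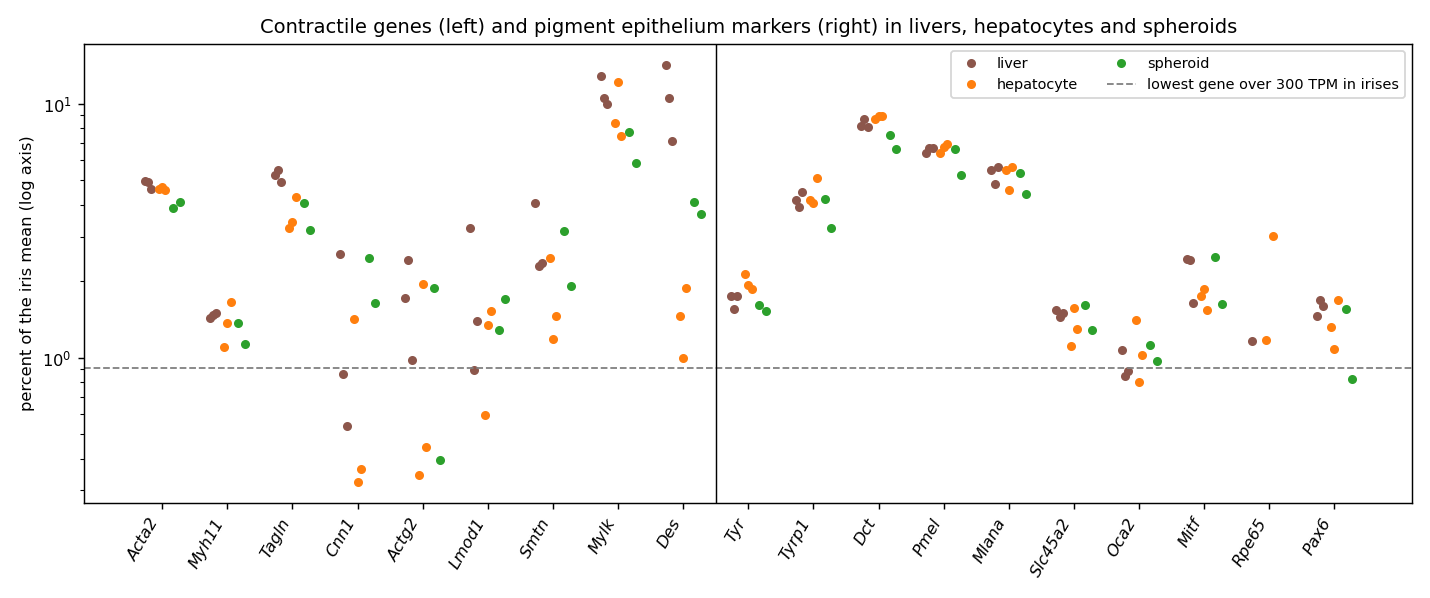
Level of 9 contractile genes (left of the line) and 10 pigment epithelium markers (right) in each liver, hepatocyte preparation and spheroid sample, as a percent of the gene's mean in the 3 irises (points; logarithmic axis; samples at 0 are not drawn). The dashed line is the lowest average among genes over 300 TPM in irises, 0.908%. The averages of Acta2 and Tagln lie between those of the abundant pigment genes Tyrp1, Mlana, Pmel and Dct, near the lower end. Mylk in the 3 livers and in hepatocyte preparation 2, and Des in livers 1 and 2, lie above Dct, the highest of those genes.

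Between livers and hepatocyte preparations Des was the only member called. It stood at 9.09, 6.75 and 4.57 TPM in livers, from 26 to 49 counts, and at 0.932, 0.635 and 1.20 TPM in hepatocyte preparations, from 3 to 5 counts. Des thus passed the filter on low counts only through the livers, the group where it was high. With at least 10 counts required in every sample it was not tested. The log2 fold change was -2.72 ± 0.43 (SE; adjusted p = 0.031, edgeR), and 1 of the 6 members tested was called, against 3.62% of all genes called and 2.84% called lower. Tagln was lower in each hepatocyte preparation than in each liver but was not called (-0.38 ± 0.18, adjusted p = 0.24), and Acta2 differed by 0.08 ± 0.12 (adjusted p = 0.705). Of the markers of hepatic stellate cells 6 of 11 tested fell, among them Cygb, the stellate cell globin (2.70 against 36.8 TPM), and Reln, an extracellular glycoprotein (1.00 against 8.45 TPM). Their summed level was 136 to 218 TPM in hepatocyte preparations and 567 to 1377 TPM in livers, and none of the 14 was at 0 in every sample of either group. The fall was not particular to stellate markers. Pericyte and vascular mural markers, which share Rgs5 and Pdgfrb with that list, fell in 3 of 6 tested. Endothelial markers fell in 2 of 9, and thin filament and light chain genes other than the members in 3 of 17. None of these lists had a gene called higher. The part of any of these cells in the change of Des was not tested. Without hepatocyte preparation 2, hepatocyte preparation 3 or liver 2 the adjusted p of Des was 0.118, 0.142 and 0.063, within a range of 0.000138 to 0.142 over its alternatives.

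No contractile gene was called higher in spheroids than in hepatocyte preparations. Of 6 members tested, 2 fell, Mylk by 0.80 ± 0.22 on the log2 scale (adjusted p = 0.0345) and Acta2 by 0.54 ± 0.17 (adjusted p = 0.0494), where 25.8% of all genes were called. Des was 2.36 and 2.63 TPM in spheroids, above all hepatocyte preparations, but was not called (1.10 ± 0.50, adjusted p = 0.147). Neither call held when single samples were left out: none was called without hepatocyte preparation 2, hepatocyte preparation 3 or spheroid 1, and 1 without hepatocyte preparation 1 or spheroid 2. Other actin cytoskeleton genes rose. Of the 17 tested from a list of thin filament and light chain genes other than the members, 6 rose and 0 fell, led by Tagln2, a relative of transgelin found in many cell types (282 against 8.19 TPM, log2 fold change 4.70 ± 0.50, adjusted p = 0.000975), and Flna, Tpm4, Pdlim7, Tpm1 and Cald1 were the others. Among the striated and cytoplasmic actins Acta1, the skeletal muscle actin, was called higher in spheroids (4.14 ± 0.84, adjusted p = 0.0111, edgeR). It stood at 38.7 TPM in spheroid 1 and 6.18 TPM in spheroid 2, from 73 and 11 counts. In hepatocyte preparations it was 0.628 to 1.11 TPM, from 1 to 2 counts, so Acta1 passed the filter on low counts only through the spheroids. Actg1, a cytoplasmic actin, rose by 0.90 ± 0.28 (adjusted p = 0.0491, edgeR).

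Against spheroids in culture, explants held far more of every contractile gene. All 10 members were tested and called higher in explants, where 37.5% of all genes were called higher, 29.5% lower and 67.0% in either direction, and the median log2 fold change over the members was 4.73 against 0.25 over all genes. Cnn1, Actg2, Lmod1 and Myocd had 0 to 8 counts per spheroid and passed the filter on low counts only through the explants. With at least 10 counts required in every sample they were not tested. Lmod1 was 5.77 ± 0.32 higher (SE), Actg2 5.60 ± 0.35, Myh11 5.33 ± 0.23 and Mylk, the smallest, 2.88 ± 0.16. The value of Actg2 ran from 5.00 to 9.78 over the alternatives. For Myocd the spheroids had 0 counts, and the level in explants was at least 2.32-fold higher than 3 counts per sample would give. Its adjusted p of 0.0127 was 0.0575 without spheroid 1, in a range of 0.00768 to 0.0575. In a bulk sample fewer cells of a type and less RNA per cell cannot be told apart, and an explant includes iris by dissection.

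The direct question for these genes is therefore whether the explants hold as much of them as their iris tissue would. Against naïve irises, 3 of 10 members fell: Acta2 by 0.35 ± 0.07 on the log2 scale (adjusted p = 0.00968), Tagln by 0.34 ± 0.08 (adjusted p = 0.0254) and Mylk by 0.32 ± 0.09 (adjusted p = 0.0371). Of all 16764 genes tested, 2.74% were called lower in explants, 9.04% higher and 11.8% in either direction. Myh11 differed by -0.31 ± 0.11 without being called (adjusted p = 0.113), although its ranges in TPM did not overlap, as was the case for 4 of the 10 members and 24.9% of all genes. Des (0.34 ± 0.11, adjusted p = 0.0712) and Lmod1 (0.40 ± 0.16, adjusted p = 0.138) pointed the other way and were not called. The calls rested on the irises: without iris 1 or iris 2 none of the 10 was called, with adjusted p of 0.0569 and 0.0528 for Acta2, and without iris 3 only Acta2 was. Tagln and Mylk were also lost without explant 2 (adjusted p = 0.053 and 0.0749), and Mylk without explant 5 or explant 6 (0.0738 and 0.0501). Without explant 2 Des was called higher (adjusted p = 0.0383), and without explant 4 Myh11 was called lower (0.0462). Over the alternatives the adjusted p ranged from 0.000246 to 0.0569 for Acta2, 0.00109 to 0.0867 for Tagln, 0.00227 to 0.307 for Mylk, 0.0383 to 0.374 for Des and 0.0462 to 0.258 for Myh11.

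The share of iris RNA in each explant was estimated from 511 iris-specific genes, those with a mean over 10 TPM in irises and at least 50 times the highest of the means of livers, hepatocyte preparations and spheroids, the members and the muscle and mural lists left out. The median of their levels relative to the irises was 86.9, 69.6, 87.3, 81.9 and 55.8% in explants 1, 2, 4, 5 and 6. Acta2, Tagln, Myh11 and Mylk had mean ratios to the iris share of 0.982 ± 0.178, 0.996 ± 0.244, 1.00 ± 0.135 and 0.992 ± 0.108 (SD, n = 5). The ratio did not hold from explant to explant: Tagln was at 78.5% of its iris mean in explant 6, which had the lowest iris share, and at 67.2% in explant 5, and its ratios ran from 0.820 to 1.41 and those of Acta2 from 0.807 to 1.27. Cnn1, Smtn and Actg2 lay above the iris share in 5 of 5 explants by smaller amounts (1.24 ± 0.187, 1.17 ± 0.132 and 1.13 ± 0.0706). Being a median, that share has as many iris-specific genes above it as below it in each explant. How many of them lay above it in 5 of 5 explants was not counted. Over the explants Cnn1 stood above 51.3 to 94.5% of the iris-specific genes, Smtn above 58.9 to 90.2% and Actg2 above 53.4 to 78.9%. Lmod1 and Des had the highest mean ratios, at 1.64 ± 0.347 and 1.59 ± 0.327, and lay above the iris share in 5 of 5 explants. Lmod1 was at 118, 104, 168, 110 and 117% of its iris mean and Des at 121, 95.8, 120, 137 and 119%, and each stood above at least 85.9% of the iris-specific genes in every explant. Explant 6, with the lowest iris share, gave the highest ratio for every gene but Myocd, which scattered from 0.811 to 2.38.

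**Figure D3:**
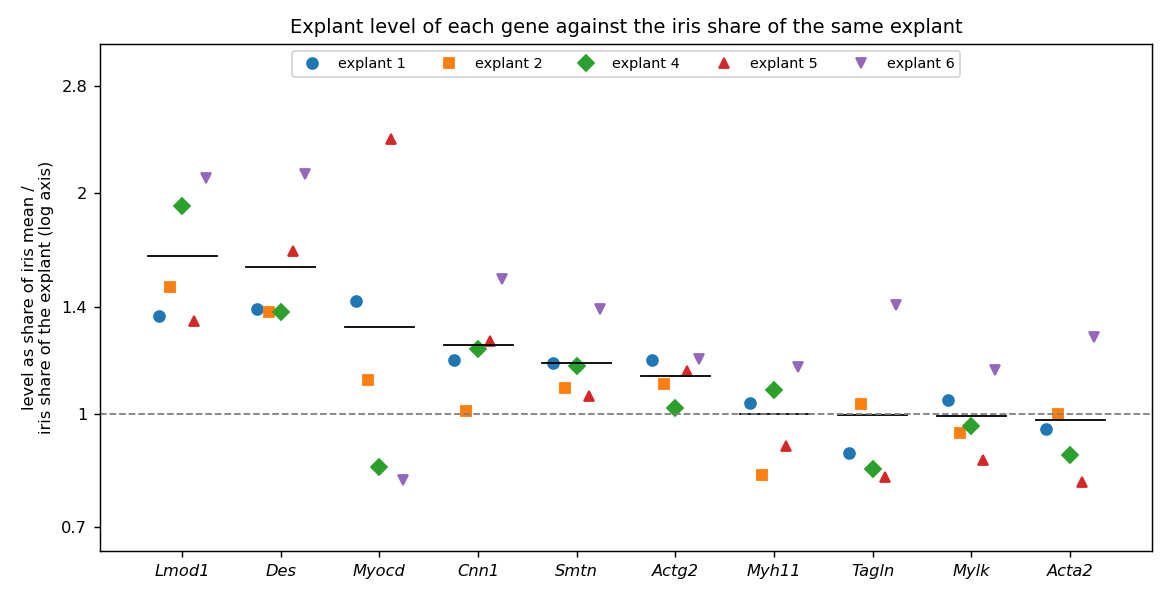
Level of each gene in each explant as a share of its iris mean, divided by the iris share of that explant from 511 iris-specific genes (points, 1 symbol per explant; logarithmic axis; black bars, means; dashed line, ratio of 1). Lmod1 and Des lie above the line in every explant and Acta2, Tagln, Myh11 and Mylk scatter around it.

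When counts were scaled to the iris-specific genes in place of all genes, 2 of 10 members, Lmod1 and Des, were called higher in explants. That is close to the 16.8% of all genes called higher. No member was called lower, where only 0.316% of all genes were. Lmod1 rose by 0.69 ± 0.19 on the log2 scale (SE; adjusted p = 0.0365) and Des by 0.64 ± 0.17 (adjusted p = 0.0358). This scaling moves the median of all genes to 0.30, and relative to that median Lmod1 stood at 0.39 and Des at 0.34, close to their values under TMM. Acta2, Tagln, Myh11 and Mylk stood between -0.05 and -0.02, and Cnn1, Actg2 and Smtn at 0.29, 0.14 and 0.21, without a call. Relative to the median of all genes they stood at -0.35, -0.33, -0.32, -0.34, -0.01, -0.16 and -0.09 in that order, within 0.02 of their values under TMM. The calls for Lmod1 and Des were lost when any 1 of the 3 irises was left out (adjusted p of 0.0772, 0.0989 and 0.141 for Lmod1 and 0.105, 0.114 and 0.0948 for Des), that for Lmod1 without explant 2 (0.055) and that for Des without explant 5 (0.0638). Over the alternatives the adjusted p was 0.00613 to 0.167 for Lmod1 and 0.00631 to 0.114 for Des, and the log2 fold change was above 0 in all 17 for both genes.

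**Figure D4:**
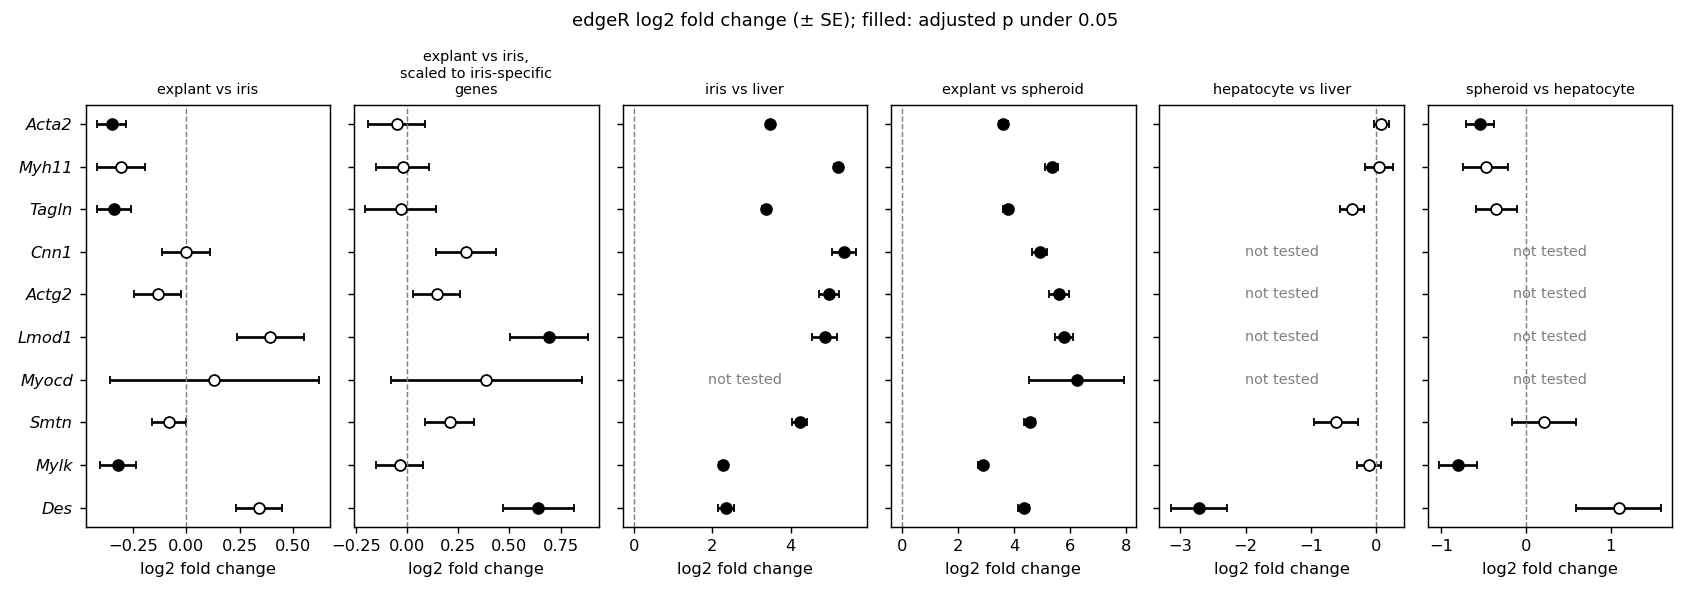
Log2 fold change of each contractile gene in the 5 comparisons and in explants against irises scaled to iris-specific genes (points, edgeR estimates; bars, SE; filled, adjusted p under 0.05), the first-named group minus the second. In explants against irises 3 genes are called lower under the scaling to all genes, where 2.74% of all genes are. Lmod1 and Des are called higher under the scaling to iris-specific genes, where 16.8% of all genes are.

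Markers of other cells that carry desmin or leiomodin were measured beside Lmod1 and Des. Pericyte and vascular mural markers summed to 245 to 321 TPM in explants and 254 to 274 TPM in irises. Their mean sum in explants was 111% of that in irises, above the iris share of every explant, as were Lmod1 and Des at 123 and 119%. So were endothelial markers at 111%, transcription factors at 101%, receptors at 96.5% and kinase, phosphatase and calcium handling genes at 90.9%. The iris share does not allow for what the graft itself adds to a list. For these lists, in that order, livers stood at 60.7, 38.5, 41.3 and 48.2% of the irises and spheroids at 39.5, 44.3, 64.1 and 57.6%. For the mural markers livers stood at 28.3% and spheroids at 16.1%. Stellate cell markers (87.0%), thin filament and light chain genes (81.6%) and pigment epithelium markers (77.3%) were not. Of 9 mural markers tested, 1 was called higher (Rgs5, a regulator of G-protein signalling typical of pericytes, 120 against 69.3 TPM, adjusted p = 0.0248) and 1 called lower (Kcnj8, a potassium channel subunit, 49.9 against 69.0 TPM, adjusted p = 0.0416). Rgs5 had the highest level of the 9 in explants, where Pdgfrb, Cspg4 and Ndufa4l2 had lower means than in irises. Stellate cell markers summed to 1691 to 1910 TPM in explants and 2033 to 2176 TPM in irises, and of 11 tested 3 were higher (Colec11, Rgs5 and Col1a1) and 2 lower (Hgf and Dcn). Striated muscle markers summed to 43.9 to 58.3 TPM in explants and 70.4 to 108 TPM in irises. Of 8 tested, Ckm, muscle creatine kinase, was called lower, and Myod1 and Myh4 were at 0 in every explant and iris. None of the mural or stellate markers was at 0 in every sample of either group, though Hand2, Colec10 and Vipr1 were at 0 in some samples of both. The part of these cells in the levels of Lmod1 and Des was not tested.

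Of 22 thin filament and light chain genes other than the members, 5 fell (Tpm2, Myl9, Hspb6, Flna and Cnn3), 2 rose and 15 did not pass, where 2.74% of all genes were called lower and 9.04% higher. The largest falls were in Tpm2, β-tropomyosin (263 against 367 TPM, -0.39 ± 0.06, adjusted p = 0.00365), and Myl9 (1338 against 1845 TPM, -0.37 ± 0.06, adjusted p = 0.00427), and the rises in Tagln2 (156 against 88.8 TPM, 0.93 ± 0.22, adjusted p = 0.0235) and Pdlim7, a scaffold protein of actin filaments (60.3 against 50.8 TPM, 0.35 ± 0.09, adjusted p = 0.038). Scaled to the iris-specific genes 0 of the 22 fell and 5 rose, where 0.316% of all genes were called lower and 16.8% higher. Among those that rose were Synm, synemin, a partner of desmin in intermediate filaments (18.6 against 13.8 TPM, adjusted p = 0.0367), Vcl, vinculin, and Cald1, caldesmon. Of 13 kinase, phosphatase and calcium handling genes tested, 0 were called with either scaling. Their values ran from -0.88 ± 0.56 for Kcnma1 and -0.65 ± 0.38 for Cacna1c, subunits of potassium and calcium channels, to 0.20 ± 0.19 for Prkg1, cGMP-dependent kinase, and 0.19 ± 0.22 for Kcnmb1.

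Of 9 transcription factors and cofactors tested, 0 were called between explants and irises, from -0.28 ± 0.43 for Hey2 and -0.27 ± 0.17 for Mef2c to 0.35 ± 0.34 for Klf4 and 0.37 ± 0.23 for Heyl. Srf, serum response factor, was 35.8 TPM in explants (log2 fold change 0.20 ± 0.15, adjusted p = 0.408), and passed only with the scaling to iris-specific genes (0.48, adjusted p = 0.0229). Of 12 receptors for nerve and local signals tested, 2 rose, Agtr1a, the angiotensin II receptor (25.7 against 8.33 TPM, adjusted p = 0.0138), and Adra1b, the α1B-adrenergic receptor (10.9 against 5.29 TPM, adjusted p = 0.0392), both of which hepatocytes also express. The muscarinic receptor of heart and smooth muscle Chrm2 (19.3 against 28.7 TPM, adjusted p = 0.12) and the adrenergic receptor Adra2a (1.27 against 1.90 TPM, adjusted p = 0.435) had the lowest fold changes and were not called. Adra1a, the α1A-adrenergic receptor, was 8.02 against 6.81 TPM and passed only with the scaling to iris-specific genes (adjusted p = 0.0477).

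The composition of the explants differed in other ways. All 10 hepatocyte markers rose, from 1.33 ± 0.19 for Ttr and 1.44 ± 0.11 for Alb to 4.43 ± 0.54 for Cps1 and 4.63 ± 0.46 for Apob on the log2 scale. Of 10 pigment epithelium markers 6 fell, with Oca2 at -0.44 ± 0.10 and Mitf, not called, at -0.19 ± 0.13, and 0 were called with the scaling to iris-specific genes. Rpe65 had the lowest value (-2.26 ± 0.65, adjusted p = 0.0534) and Pax6 was at -0.23 ± 0.08. All 7 lens markers tested fell, with log2 fold changes of -2.91 ± 0.70 for Cryba2, -2.85 ± 0.78 for Cryaa, -0.37 ± 0.05 for Cryab and -0.36 ± 0.07 for Bfsp2. Among nerve and Schwann cell markers Gap43 and S100b fell, and Ngfr, at 0.89 ± 0.32, was not called. Of 9 endothelial markers 2 rose, Pecam1 (0.75 ± 0.20) and Cdh5 (0.69 ± 0.19), and 0 fell, the lowest values being -0.06 ± 0.12 for Egfl7 and 0.03 ± 0.10 for Emcn.

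Across the 8 irises and explants the members did not move as a single unit. The correlation of each gene's log2(TPM + 1) with the mean of the other 9 was 0.952 for Myh11 and Smtn, 0.841 for Mylk, 0.780 for Cnn1, 0.771 for Actg2, 0.628 for Acta2, 0.412 for Tagln and 0.198 for Myocd, and -0.080 for Des and -0.144 for Lmod1. Among 14440 other genes with a mean of at least 5 TPM in irises, those most like the mean of the 10 members were Dpysl2, Nos1, Tab1, Hsf4, Wbp2, Vamp4, 2310034O05Rik, Opn4, Spock3 and Syngr1, with r from 0.975 to 0.985. These correlations describe 8 samples from 2 groups that differ in iris share and in total counts. Nos1, neuronal nitric oxide synthase, had a mean of 20.5 TPM in irises and 14.9 TPM in explants, and Opn4, melanopsin, 119 and 87.8 TPM.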

How the data were processed

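RNA of 16 samples was sequenced as 48 Smart-seq3 libraries, 3 technical libraries per sample. Per the labels and the study's methods, the authors aligned reads with TopHat2 to mm10, removed duplicate reads with UMI-tools and counted reads per gene with featureCounts 1.4.6-p5 (exons, no strand, every overlapping gene). The authors deposited raw counts per library, counts summed over the technical libraries, and TPM from those sums. A further deposited table gives the explants' signal after subtraction of an iris contribution. It served for gene symbols (9 of the 10 members, Myocd being matched by the reference's symbol) and to solve the iris share applied by the authors, and its values are not reported. Summed counts were 2718518 to 6789648 per sample, and intervals and floors cover counting error only.

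Samples were grouped by their labels. Each comparison was a fit of its 2 groups with edgeR 4.0.16 in R 4.3.3 (quasi-likelihood test, filterByExpr, TMM), Benjamini-Hochberg adjustment over all genes tested and calls at an adjusted p under 0.05 with no limit on the fold change, tested on simulated data first. Explants and irises were also compared with scaling to 511 iris-specific genes. DESeq2 1.42.0, limma 3.58.1 (voom), other scalings and filters, a limit on the log2 fold change of 1, a single fit, 1 technical library, a replicate block and leaving out each sample were the alternatives. After seeing the data 2 more were added: the set of library index numbers as a term, and undoing an assumed limit of 2 read starts per base. Log values used log2(TPM + 1). Tables were handled with Python 3.11.15, pandas 2.3.3 and numpy 2.4.6.

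The members and lists were chosen with earlier results of these data known. Named genes were the 10 members, from each list the 2 highest and the 2 lowest log2 fold changes in explants against irises and any gene beside its list's count, the 10 genes most like the members, and the actin paralogs. No genome sequence or protein table was used here. Some genes of the marker lists are not reported here.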

Additional observations from a re-analysis of the deposited data

Results flagged for a closer look

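Lmod1 in explant 4 stood apart from the other explants, at 100.2 TPM against 62.1 to 70.6 TPM. Its gap to the nearest explant was 0.777 of the group's range, above the 95% limit of Dixon's test for 5 samples (0.71), a limit that chance passes in about 1 of 20 groups. The 10 members and their summed level were examined this way, and no other value passed.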

How the results depend on the processing

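Between irises and livers each of the 9 members was called higher in irises in every alternative that tested it, with 9 to 10 members called when single samples were left out. In explants against irises 3 members were called, 0 with a limit on the log2 fold change of 1, and 0 to 4 when single samples were left out. Mylk also lost its call in the single fit of all 5 groups (adjusted p = 0.149, edgeR) and with the limit on read starts undone (0.0506). In hepatocyte preparations against livers 1 was called, and 0 with limma-voom or with the index set as a term, where Des was tested, and 0 with at least 10 counts in every sample or with technical library a alone, where Des was filtered out and not tested, and 0 to 1 when samples were left out. In spheroids against hepatocyte preparations 2 were called, 0 with the fold limit, with library size alone or with library a alone, 1 with DESeq2, RLE size factors, no filter, at least 10 counts, the replicate block or the index set, and 0 to 1 when samples were left out. In explants against spheroids 10 were called, 6 with at least 10 counts in every sample, where only those 6 were tested, and 9 to 10 when samples were left out. Scaled to iris-specific genes 2 were called, 0 with the fold limit, the replicate block or the index set, 1 with library a alone, and 0 to 2 when samples were left out. The median ratio to the iris share was 1.15, and 1.10 to 1.16 when samples were left out. Except as stated, the cause was not tested. This last scaling was not run with RLE factors, library size alone or the single fit.

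Replicate numbers were shared between groups, but the deviations of same-numbered samples correlated at -0.10 to 0.24, so the numbers were not taken as pairs. With the replicate block the calls over all genes in explants against irises went from 1975 to 1002, and the calls of Mylk (-0.24, adjusted p = 0.307, edgeR) and, scaled to iris-specific genes, of Lmod1 (0.34, adjusted p = 0.167) and Des (0.49, adjusted p = 0.0622) were lost, as was that of Acta2 in spheroids against hepatocyte preparations (-0.52, adjusted p = 0.13). Calls over all genes in explants against irises fell to 761 to 784 without an iris, 1153 with limma-voom and 1085 with the fold limit. In hepatocyte preparations against livers they went from 443 to 939 with DESeq2, 21 with limma-voom, 2250 in the single fit, 27 with the index set and 8 to 568 when samples were left out. Library size alone moved the split of calls higher and lower from 6042 and 5334 to 9023 and 3159 between irises and livers, from 1515 and 460 to 1367 and 883 in explants against irises, from 6401 and 5032 to 8294 and 3054 in explants against spheroids, from 1526 and 1637 to 2579 and 1105 in spheroids against hepatocyte preparations and from 96 and 347 to 66 and 556 in hepatocyte preparations against livers. Undoing the limit on read starts moved the ratio of Acta2 from 0.98 to 0.95. Counts of 0 to 24 per sample limit Myocd, and counts of 1 to 11 limit Actg2, Cnn1 and Lmod1 outside the eye.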
